A study of Mus musculus with 9 samples.

Results

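The Notch receptors, ligands and effectors described here are 10 genes, *Notch1*, *Notch2*, *Notch3*, *Jag1*, *Jag2*, *Dll1*, *Hes1*, *Hey1*, *Heyl* and *Maml2*, taken by their symbols from the 55385 genes counted. Poly(A) RNA was sequenced from tdTomato-positive cells that were sorted by flow cytometry from kidney cortex and outer medulla of male mice aged 9 to 12 weeks. The d14 cells came from Sox9IRES-CreERT2/+:R26RtdT/+ mice after bilateral renal ischemia reperfusion injury (IRI). Those mice received tamoxifen on days 10 and 12 after injury, and the labels describe the cells as expressing *Sox9* at day 14. The 48 h cells came from Sox9IRES-CreERT2/+:R26RtdT/+ mice given tamoxifen when IRI was induced, and had activated *Sox9* by 48 h. The uninjured cells came from Slc34a1IRES-CreERT2/+:R26RtdT/+ mice given tamoxifen without injury. All 3 groups share the tamoxifen-inducible Cre and the R26RtdT reporter, and each has 3 libraries that the labels call biological replicates.

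The reporter marks cells in which the driver gene was active while tamoxifen was present, together with their descendants. The share of such cells that was marked is not known here. The driver is *Sox9*, a transcription factor gene of injured and repairing tubules, in both injured groups. In the uninjured group it is *Slc34a1*, the sodium-phosphate cotransporter gene of the proximal tubule. Driver allele, injury and tamoxifen schedule therefore differ together between the injured groups and the uninjured group and cannot be told apart. Time after injury and tamoxifen schedule likewise differ together between d14 and 48 h cells, so the reporter may mark different cells in these groups. In sorted bulk RNA, fewer cells of a type and less RNA per cell cannot be told apart either.

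Notch signalling passes between touching cells. A ligand of the Jagged or Delta family on one cell binds a Notch receptor on its neighbour, the receptor is cut by an ADAM protease and then by gamma-secretase, and the freed intracellular domain enters the nucleus. There it joins the DNA-binding protein RBPJ and a Mastermind-like coactivator, and switches on repressor genes of the Hes and Hey families. In the developing kidney the pathway takes part in nephron segment patterning, and it has been studied in tubules after injury.

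The promoters of *Jag1*, *Notch3* and *Maml2* are shown because, of the members found in the RefSeq promoter table (build GRCm38.p6), these rose most in d14 over uninjured cells. The table held 7 of the 10 genes with 9 windows of 250 bases before an annotated start, and *Hes1*, *Hey1* and *Heyl* were not among them. Capitals mark the RBPJ core TGGGAA and the SOX core AACAAT, each searched on both strands; the letters of the 2 motifs do not overlap. The *Jag1* window on the minus strand, chr2:137116645-137116770, is limited to the 126 bases upstream of the GENCODE gene. The *Notch3* window is chr17:32166891-32167140 on the minus strand. The *Maml2* windows, on the plus strand, are chr9:13297708-13297957 before the first start and chr9:13662210-13662459 before an internal start. All are written 5′ to 3′ on the gene's strand.
Jag1: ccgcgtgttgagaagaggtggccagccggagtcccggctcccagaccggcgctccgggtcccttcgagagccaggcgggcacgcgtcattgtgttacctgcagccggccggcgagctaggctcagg
Notch3: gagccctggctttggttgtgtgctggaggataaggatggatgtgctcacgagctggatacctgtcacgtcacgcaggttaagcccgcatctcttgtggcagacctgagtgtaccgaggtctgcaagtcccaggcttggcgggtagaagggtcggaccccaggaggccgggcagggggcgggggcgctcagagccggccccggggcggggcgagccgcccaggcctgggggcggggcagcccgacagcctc
Maml2 first start: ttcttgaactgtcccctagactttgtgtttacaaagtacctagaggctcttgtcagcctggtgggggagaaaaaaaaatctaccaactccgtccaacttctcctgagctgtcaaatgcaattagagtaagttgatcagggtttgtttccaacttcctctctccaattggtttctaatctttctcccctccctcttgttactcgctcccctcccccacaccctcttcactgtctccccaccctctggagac
Maml2 internal start: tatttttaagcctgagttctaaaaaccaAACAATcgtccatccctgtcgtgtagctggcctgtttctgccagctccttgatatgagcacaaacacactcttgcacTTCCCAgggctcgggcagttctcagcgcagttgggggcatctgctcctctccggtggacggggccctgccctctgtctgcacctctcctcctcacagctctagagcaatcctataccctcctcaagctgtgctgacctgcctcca
The RBPJ core was present in 1 of the 9 member windows, against 21.6% of all 32851 windows in the table. It stood 145 bases before the internal start of *Maml2*, on the minus strand. The SOX core was present in the same window, 222 bases before the start, and in 9.40% of all windows. GC content was 57.2% in the full *Jag1* window, 68.8% in the *Notch3* window, and 48.0% and 55.2% in the *Maml2* windows, with a median of 52.4% over all windows.

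Total counts per library were 19239354 to 30414758 in d14 cells, 8036054 to 23794029 in 48 h cells and 31585507 to 51631204 in uninjured cells. The smallest total belonged to 48 h replicate 2, where 3 counts correspond to 0.431 CPM, the read count normalised to library size; the lowest such limit in any library was 0.0651 CPM. *Sox9* itself had 38.8, 32.1 and 28.8 CPM in d14 cells, 7.57, 15.1 and 22.1 CPM in 48 h cells, and 0.152, 0.0351 and 0.635 CPM in uninjured cells. *Slc34a1* had 994, 1620 and 1653 CPM in d14 cells, 4404, 1147 and 1895 CPM in 48 h cells, and 4796, 4626 and 4807 CPM in uninjured cells. The *Sox9* levels thus separated the injured groups from the uninjured group in every library. CPM values are scaled by TMM (trimmed mean of M-values), and a gene was called at an adjusted p below 0.05 in edgeR's quasi-likelihood test over 15519 tested genes, with Benjamini-Hochberg adjustment. The sources used here do not say whether counting used strand, and *Notch1*, *Notch3*, *Dll1* and *Maml2* overlap genes on the opposite strand, so reads of those partners may be part of their counts. *Notch1*, *Notch2*, *Jag2* and *Maml2* also overlap genes annotated on the same strand, where a strand setting would not separate the reads.

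Against uninjured cells, 7 of the 10 genes rose in d14 cells, where 25.1% of all tested genes were called higher. *Notch1*, *Notch2*, *Notch3*, *Jag1*, *Hes1*, *Heyl* and *Maml2* rose and none of the 10 was called lower, where 20.7% of all genes were. The median log2 fold change of the 10 genes was 2.55, against 0.06 for all tested genes. At 48 h, 5 rose over uninjured cells, *Notch1*, *Notch3*, *Jag1*, *Hes1* and *Maml2*, with a background of 17.4% higher and 11.7% lower. The median there was 1.59, against 0.02 for all genes. Between d14 and 48 h cells, *Notch1*, *Notch2*, *Notch3*, *Jag1*, *Hes1*, *Heyl* and *Maml2*, again 7 genes, were higher at d14, with a background of 16.8% higher and 16.3% lower; without d14 replicate 1 the count was 4. The median was 0.96, against 0.05 for all genes. The count of members called lower was 0 in each comparison by edgeR and by limma-voom; at an unadjusted p below 0.05, and by DESeq2, it was 0, 0 and 1, the 1 being *Jag2* in d14 against 48 h cells. The comparisons with uninjured cells share those 3 libraries, and the comparison of d14 with 48 h cells shares both injured groups with them.

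**Figure D1:**
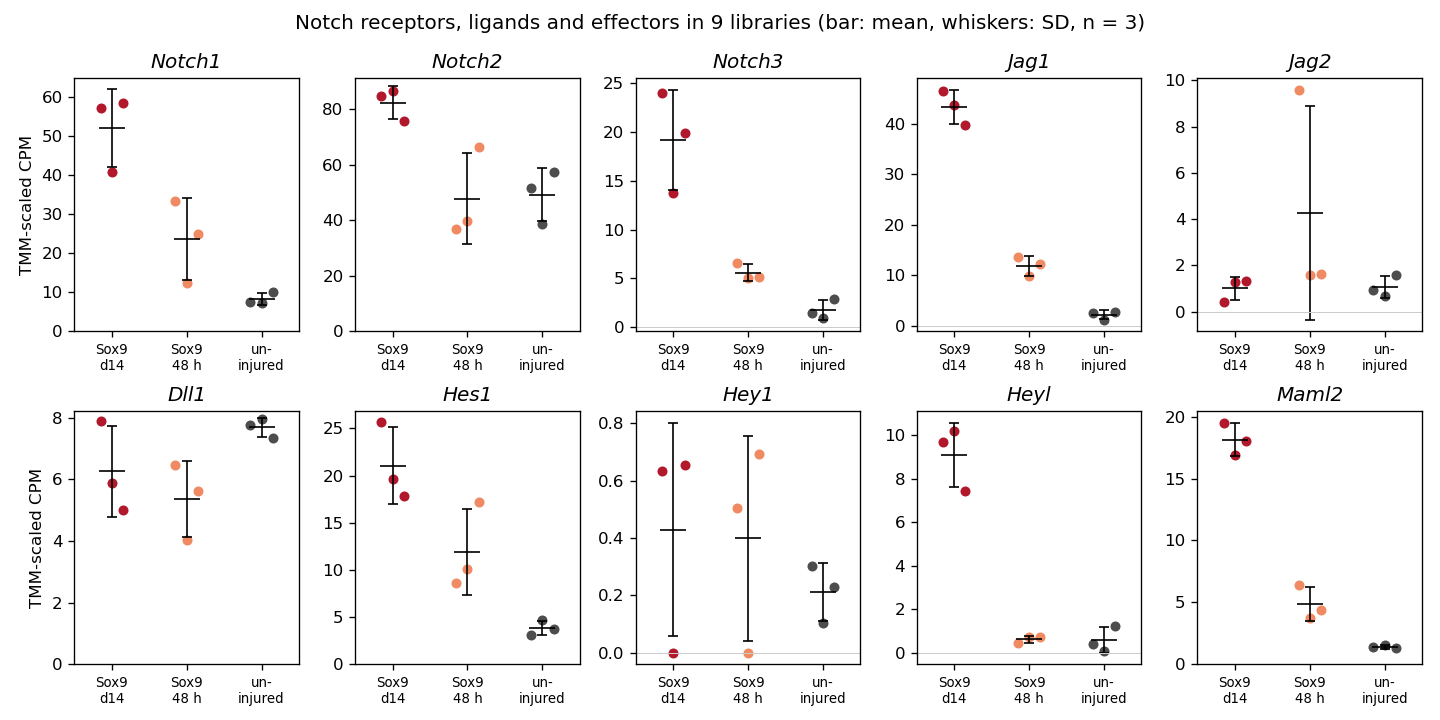
TMM-scaled CPM of the 10 genes in d14, 48 h and uninjured libraries (points: libraries, bar: mean, whiskers: SD, n = 3). *Jag1* lay at 39.8 to 46.5 CPM in d14 cells and at 1.16 to 2.79 CPM in uninjured cells, whereas *Dll1* stayed between 4.02 and 7.97 CPM in all 9 libraries.

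Without TMM scaling, the median of all genes moves by 0.566 on the log2 scale in d14 against uninjured cells and by 0.574 in d14 against 48 h cells. Calls over all genes then split into 7315 higher and 1417 lower in d14 against uninjured cells, in place of 3898 and 3214. For d14 against 48 h cells they split into 6812 higher and 934 lower, in place of 2604 and 2533. The 10 genes' calls against uninjured cells keep their direction under that scaling, and so do those between d14 and 48 h cells.

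*Notch1* (ENSMUSG00000026923.15, GRCm38/mm10 chr2:26457903-26516663), which encodes the receptor with the widest known developmental role, had 57.1, 40.7 and 58.6 CPM in d14 cells. It had 33.5, 12.5 and 25.0 CPM in 48 h cells, and 7.47, 7.41 and 10.0 CPM in uninjured cells. No 2 groups overlapped, and d14 cells were highest. The value of 33.5 CPM came from 48 h replicate 1, which had a sum of 15 endothelial markers of 921 CPM, against 115 and 184 CPM in replicates 2 and 3. Without that library the log2 fold change in 48 h over uninjured cells was 1.21 ± 0.28 and still called (adjusted p = 0.00855). How much endothelial RNA adds to the *Notch1* values was not tested. The log2 fold change was 2.65 ± 0.31 (SE) in d14 over uninjured cells (adjusted p = 6.88e-05), 1.54 ± 0.31 in 48 h over uninjured cells (adjusted p = 0.0045) and 1.12 ± 0.30 in d14 over 48 h cells (adjusted p = 0.0171). The last of these was not called without d14 replicate 1, without d14 replicate 3 or without the filter on low counts (adjusted p 0.0011 to 0.0597 over the alternatives).

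*Notch2* (chr3:98013527-98150361) encodes the receptor required for proximal nephron segments in the developing mouse kidney. Its levels were 84.7, 86.5 and 75.6 CPM in d14 cells, 36.8, 39.8 and 66.4 CPM in 48 h cells, and 51.6, 38.6 and 57.4 CPM in uninjured cells. All d14 libraries were above all others, while 48 h and uninjured libraries overlapped. *Notch2* rose by 0.74 ± 0.22 on the log2 scale in d14 over uninjured cells (adjusted p = 0.0166) and by 0.78 ± 0.22 over 48 h cells (adjusted p = 0.0197); at 48 h over uninjured cells the value was -0.04 ± 0.22 (adjusted p = 0.914). The call against uninjured cells was lost without uninjured replicate 2 or d14 replicate 2. The call against 48 h cells was lost without 48 h replicate 1 or 2, or without d14 replicate 1 or 2.

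*Notch3* (chr17:32120820-32166852), best known from vascular smooth muscle and pericytes, had 23.9, 13.8 and 19.8 CPM in d14 cells. It had 6.56, 5.03 and 5.12 CPM in 48 h cells, and 1.43, 0.983 and 2.92 CPM in uninjured cells. The 3 groups were fully separate. Its log2 fold changes were 3.42 ± 0.38 in d14 over uninjured cells, a 10.7-fold difference (adjusted p = 2.80e-05), 1.64 ± 0.37 in 48 h over uninjured cells (adjusted p = 0.0076) and 1.78 ± 0.36 in d14 over 48 h cells (adjusted p = 0.00392). The 12 pericyte and smooth muscle markers summed to 28.1 to 77.4 CPM in d14 cells, 44.3 to 68.0 CPM in 48 h cells and 39.6 to 54.8 CPM in uninjured cells. In d14 over uninjured cells 1 of the 10 tested markers of that list was higher and 1 lower, and in the other comparisons none was called. Of its defining markers *Pdgfrb* averaged 0.657 CPM in d14, 0.472 CPM in 48 h and 1.85 CPM in uninjured cells, and *Rgs5* averaged 5.83 CPM in d14, 1.09 CPM in 48 h and 3.77 CPM in uninjured cells. *Acta2* averaged 2.48 CPM in d14, 1.58 CPM in 48 h and 1.67 CPM in uninjured cells, and *Myh11* 1.70 CPM in d14, 1.23 CPM in 48 h and 3.74 CPM in uninjured cells. None of these 4 genes was called in any comparison, and the part of mural cell RNA in the *Notch3* values was not tested.

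Divided by length, the make-up of the 3 receptors' RNA differed between groups. *Notch2* made up 56.1 ± 6.63% of the counts per kilobase of these 3 receptors in d14 cells, 65.0 ± 11.4% in 48 h cells and 85.1 ± 1.94% in uninjured cells (SD, n = 3 each). *Notch3* made up 17.2 ± 3.29% in d14 cells, 10.6 ± 2.75% in 48 h cells and 3.92 ± 1.51% in uninjured cells, and *Notch1* made up 26.7 ± 3.80% in d14 cells, 24.4 ± 10.0% in 48 h cells and 11.0 ± 1.37% in uninjured cells. The *Notch2* share was 29.0 percentage points lower in d14 than in uninjured cells. In a two-sided exact permutation test p was 0.1, the smallest that 3 against 3 libraries allow, so no share difference could pass 0.05. Between d14 and 48 h cells the exact permutation p was 0.3 for the *Notch2* share and 0.7 for the *Notch1* share. In 48 h replicate 1 the *Notch1* share was 35.8%, against 16.9% and 20.5% in 48 h replicates 2 and 3. *Notch4* was not part of these shares. It averaged 0.253 ± 0.0575 CPM per kilobase in d14 cells, 1.27 ± 1.36 in 48 h cells and 0.423 ± 0.166 in uninjured cells. *Notch3* averaged 2.37, 0.689 and 0.220 in the same groups.

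**Figure D2:**
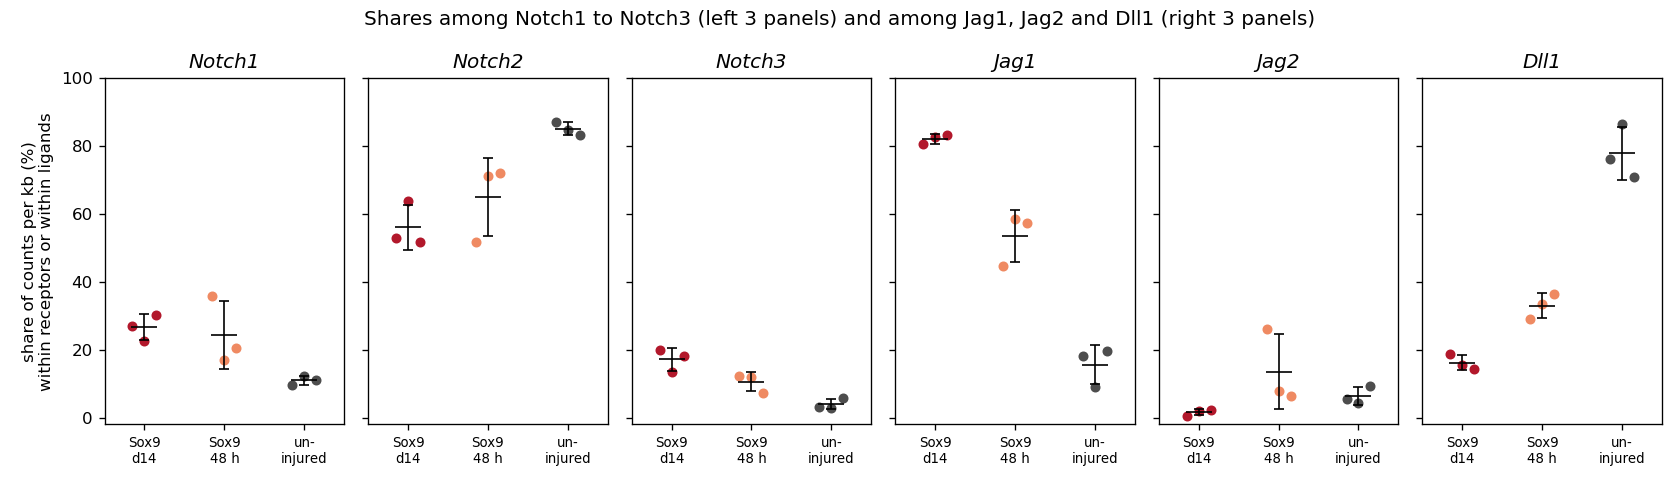
Share of counts per kilobase among the receptors *Notch1*, *Notch2* and *Notch3* and among the ligands *Jag1*, *Jag2* and *Dll1*, in percent, per library of the d14, 48 h and uninjured groups (points: libraries, bar: mean, whiskers: SD, n = 3). Of the signal of these 3 ligands, *Jag1* averaged 82.1% in d14 cells and 15.6% in uninjured cells, and *Dll1* 16.2% and 77.9%. *Notch4* and *Dll4* were not part of the shares.

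Among the ligands, *Jag1* had the largest fold change of the 10 genes in both comparisons with uninjured cells. *Jag1* (ENSMUSG00000027276.7, chr2:137081456-137116644) encodes the membrane ligand Jagged1. It had 46.5, 43.7 and 39.8 CPM in d14 cells, 13.7, 9.77 and 12.2 CPM in 48 h cells, and 2.56, 1.16 and 2.79 CPM in uninjured cells. Each group's lowest library was more than any library of the group below it. The difference was 19.6-fold in d14 over uninjured cells (log2 4.29 ± 0.28, adjusted p = 5.42e-07) and 5.44-fold in 48 h over uninjured cells (log2 2.44 ± 0.27, adjusted p = 8.60e-05). Over 48 h cells the d14 value was log2 1.85 ± 0.25 (adjusted p = 0.000365). These 3 calls held in all 18 alternatives run for each.

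*Jag2* (chr12:112907819-112929776), the gene of the related ligand Jagged2, was low in 8 of the 9 libraries. It had 0.422, 1.27 and 1.33 CPM in d14 cells, 9.59, 1.58 and 1.61 CPM in 48 h cells, and 0.934, 0.667 and 1.60 CPM in uninjured cells. The value of 9.59 CPM, 171 counts, came from 48 h replicate 1, which also had the highest sum of 15 endothelial markers, 921 CPM against 115 and 184 CPM in the other 48 h libraries. In the same library *Notch4* and *Dll4*, a receptor and a ligand gene known from endothelium, also had their highest 48 h levels. *Notch4* stood at 22.8 CPM there, against 2.44 and 5.44 CPM in the other 48 h libraries, and *Dll4* had 232 counts, against 7 and 54 counts. The d14 libraries lay below all 48 h libraries, and both groups overlapped the uninjured libraries. *Jag2* was not called in any comparison: its log2 fold change was 2.01 ± 0.78 in 48 h over uninjured cells (adjusted p = 0.0773) and 0.57 ± 0.74 without 48 h replicate 1 (adjusted p = 0.619). In d14 over 48 h cells it was -2.09 ± 0.79 (adjusted p = 0.063), and in d14 over uninjured cells -0.08 ± 0.77 (adjusted p = 0.942). The part of endothelial RNA in these values was not tested.

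*Dll1* (chr17:15367354-15376872), a Delta-type ligand gene, had 7.89, 5.90 and 5.01 CPM in d14 cells, 6.45, 4.02 and 5.62 CPM in 48 h cells, and 7.75, 7.97 and 7.34 CPM in uninjured cells. The uninjured libraries lay above all 48 h libraries and overlapped the d14 libraries. No comparison was called, with log2 fold changes of -0.30 ± 0.26 in d14 over uninjured cells (adjusted p = 0.39; 0.29 without TMM scaling, likewise not called), -0.50 ± 0.27 in 48 h over uninjured cells (adjusted p = 0.187) and 0.21 ± 0.27 in d14 over 48 h cells (adjusted p = 0.589).

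Per kilobase, *Jag1* made up 82.1 ± 1.41% of the signal of the 3 ligand genes in d14 cells, 53.5 ± 7.70% in 48 h cells and 15.6 ± 5.70% in uninjured cells. *Dll1* made up 16.2 ± 2.32% in d14 cells, 33.0 ± 3.67% in 48 h cells and 77.9 ± 7.87% in uninjured cells. The *Jag1* share was thus 66.5 percentage points higher and the *Dll1* share 61.7 points lower in d14 than in uninjured cells, with an exact permutation p of 0.1 for each. *Jag2* made up 1.65 ± 0.913% in d14 cells, 13.5 ± 11.0% in 48 h cells, where replicate 1 was highest, and 6.44 ± 2.61% in uninjured cells. *Dll4* was not part of these shares. It averaged 0.612 ± 0.195 CPM per kilobase in d14 cells, 1.43 ± 1.70 in 48 h cells and 0.524 ± 0.173 in uninjured cells, where *Jag1* averaged 0.373.

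*Hes1* (chr16:30064384-30067796) encodes a repressor of the bHLH family and is the best-known direct Notch target. It had 25.7, 19.7 and 17.8 CPM in d14 cells, 8.64, 10.1 and 17.1 CPM in 48 h cells, and 3.15, 4.70 and 3.71 CPM in uninjured cells. The groups were separate, although 48 h replicate 3 came close to d14 replicate 3. *Hes1* rose by 2.45 ± 0.28 on the log2 scale in d14 over uninjured cells (adjusted p = 3.57e-05) and by 1.65 ± 0.28 in 48 h over uninjured cells (adjusted p = 0.00144). In d14 over 48 h cells it rose by 0.80 ± 0.27 (adjusted p = 0.0416), a call that was lost in 10 of 18 alternatives, over which the adjusted p ranged 0.00297 to 0.154.

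*Heyl* (chr4:123233556-123249875), a Hey-family repressor gene, had 9.68, 10.2 and 7.43 CPM in d14 cells, from 275, 257 and 273 counts. It had 0.449, 0.719 and 0.738 CPM in 48 h cells and 0.413, 0.105 and 1.24 CPM in uninjured cells. All d14 libraries were above the rest, and 48 h and uninjured libraries overlapped. It was 15.1-fold higher in d14 than in uninjured cells (log2 3.92 ± 0.66, adjusted p = 0.000574) and differed by log2 3.85 ± 0.70 in d14 over 48 h cells (adjusted p = 0.002). At 48 h over uninjured cells the value was 0.07 ± 0.69 (adjusted p = 0.953). The filter on low counts uses CPM without TMM scaling, unlike the values above. By that measure *Heyl* reached its cutoff, 0.42 CPM, in 6 libraries, the 3 of d14 and 3 others. *Notch1*, *Notch3*, *Jag1*, *Hes1* and *Maml2* were called at 48 h as well, and whether the 48 h value of *Heyl* differs from theirs was not tested.

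*Hey1* (chr3:8663359-8667256), a second Hey-family repressor gene, was near the limit of counting, with 18, 0 and 24 counts in d14 cells, 9, 0 and 15 counts in 48 h cells, and 14, 3 and 9 counts in uninjured cells. The 0 counts in d14 replicate 2 and 48 h replicate 2 allow up to 0.119 and 0.431 CPM. None of its comparisons was called (adjusted p = 0.557 in d14 over uninjured cells, 0.608 in 48 h over uninjured cells and 0.999 in d14 over 48 h cells), and a difference was not detectable at this depth.

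*Maml2* (ENSMUSG00000031925.17, chr9:13297957-13709388), one of the Mastermind-like coactivators that join RBPJ on DNA, had 19.5, 16.9 and 18.0 CPM in d14 cells. It had 6.40, 3.74 and 4.43 CPM in 48 h cells, and 1.37, 1.54 and 1.29 CPM in uninjured cells. The groups did not overlap, and the spread within d14 cells was small beside the distance to 48 h cells. The difference was 12.9-fold in d14 over uninjured cells (log2 3.69 ± 0.26, adjusted p = 8.03e-07), with log2 1.81 ± 0.25 in 48 h over uninjured cells (adjusted p = 0.000363) and 1.88 ± 0.24 in d14 over 48 h cells (adjusted p = 0.000227).

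**Figure D3:**
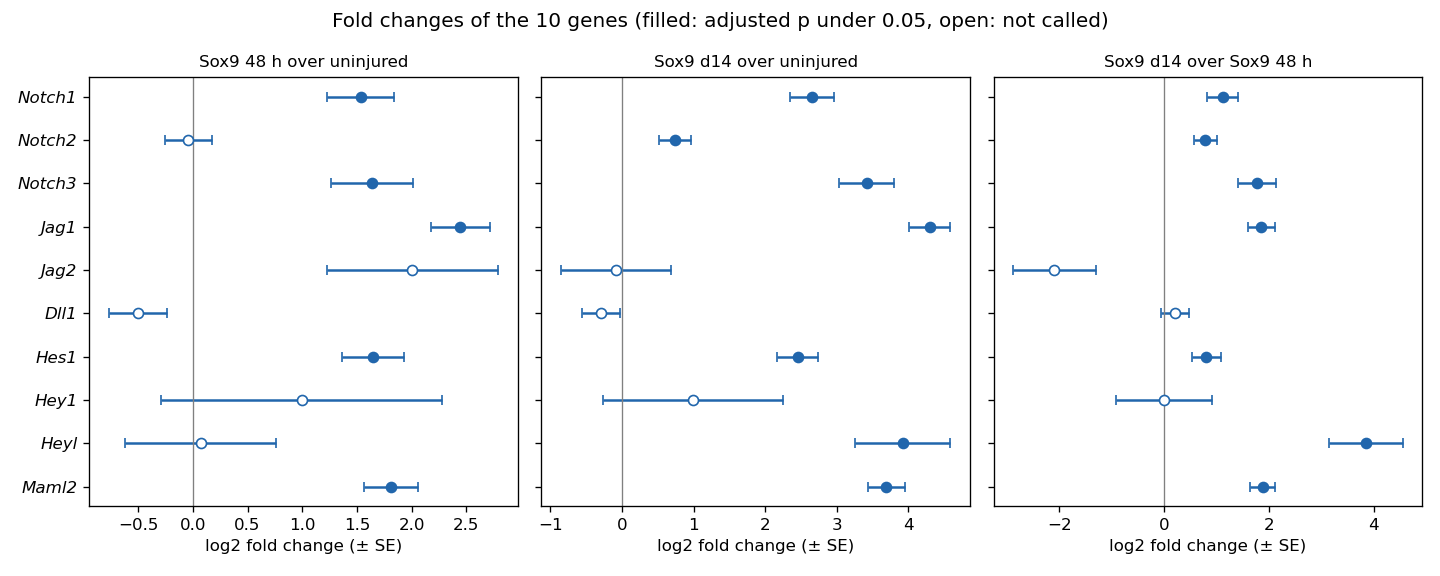
Log2 fold changes of the 10 genes in the 3 comparisons with their standard errors (horizontal bars); filled points passed an adjusted p of 0.05. In d14 over uninjured cells *Jag1* stood at 4.29 and *Heyl* at 3.92, whereas in 48 h over uninjured cells *Heyl* stood at 0.07.

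Levels per kilobase allow the genes to be set beside each other. In d14 cells *Hes1* was highest with 10.3 ± 2.02 CPM per kilobase, before *Notch2* with 7.63 ± 0.541 and *Jag1* with 7.44 ± 0.577, which differed by less than their SD. *Notch1* followed with 3.66 ± 0.697, and *Maml2* with 2.75 ± 0.201 and *Notch3* with 2.37 ± 0.630 did not differ beyond their spread. *Heyl* had 1.78 ± 0.286 and *Dll1* 1.48 ± 0.349, again within their spread, and *Jag2* and *Hey1* were lowest with 0.145 and 0.131. In uninjured cells *Notch2* was highest with 4.56 ± 0.891, followed by *Hes1* with 1.89 ± 0.387 and *Dll1* with 1.82 ± 0.0762, while *Jag1* had 0.373 ± 0.152 (SD, n = 3 each).

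The profile of each gene over the 9 libraries was set beside that of every other tested gene by the root mean square difference of mean-centred log2 CPM. Within the 10 genes *Notch3* and *Maml2* were closest with 0.45, before *Notch3* and *Jag1* with 0.49. *Hes1* had its nearest profiles in *Klf6* with 0.20 and *Itga3* with 0.21, and *Fam3c* stood at 0.20 from *Maml2*. *Jag1* was nearest to *Utrn* with 0.23 and *Fbxo32* with 0.29, *Notch1* to *Tbc1d2b* with 0.21 and *Itpkb* with 0.25, and *Notch3* to *Rassf10* with 0.21 and *Tjp3* with 0.22. *Jag2*, *Hey1* and *Heyl* had no profile nearer than 0.38, that of *Rasip1* to *Jag2*.

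Around these genes, 69 other genes of the pathway were grouped by role, and 62 were tested. In d14 over uninjured cells 28 were higher and 12 lower, with a median log2 fold change of 0.39, where 25.1% of all tested genes were higher and 20.7% lower; in 48 h over uninjured cells 15 were higher and 5 lower, with a median of 0.04, beside 17.4% and 11.7% of all genes; and in d14 over 48 h cells 18 were higher and 12 lower, with a median of 0.17, beside 16.8% and 16.3% of all genes. The lower counts of 12 and 5 of 62 were near or below the shares over all genes. Leaving out 1 library moved several of these counts. The 15 higher fell to 9 without uninjured replicate 1 or 48 h replicate 3. The 5 lower became 9 without 48 h replicate 1 and 3 without uninjured replicate 1 or 3, 48 h replicate 3 or d14 replicate 3. In d14 over uninjured cells the 12 lower became 7 without uninjured replicate 3 or d14 replicate 1 or 3. In d14 over 48 h cells the 12 lower became 5, 7 and 6 without d14 replicates 1, 2 and 3. Without TMM scaling the lower counts were 4 in d14 over uninjured cells and 3 in d14 over 48 h cells, where 41 were then higher. The roles below hold 12 genes or fewer each, so their counts are descriptions to be read against the shares over all genes. Among the nuclear partners, *Maml3*, a sister coactivator gene of *Maml2*, had 26.4, 18.6 and 28.2 CPM in d14 cells, 4.26, 7.90 and 8.80 CPM in 48 h cells, and 2.56, 2.11 and 3.40 CPM in uninjured cells. Its groups were separate, and it was called in every comparison, by log2 3.17 ± 0.31 in d14 over uninjured cells (adjusted p = 9.40e-06). *Maml1* was not called, with 0.10 ± 0.13 in d14 over uninjured cells (adjusted p = 0.584). *Rbpj*, which encodes the DNA-binding partner, had 36.8, 40.9 and 33.6 CPM in d14 cells, 25.4, 24.6 and 30.8 CPM in 48 h cells, and 27.4, 22.8 and 30.1 CPM in uninjured cells. *Rbpj* rose by 0.47 ± 0.14 in d14 over uninjured cells (adjusted p = 0.0197), a call lost in 3 alternatives, those without uninjured replicate 1, uninjured replicate 2 or d14 replicate 2.

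Of the 5 other targets tested, 2 were higher and 1 lower in d14 over uninjured cells. *Nrarp*, a target gene whose product dampens the signal, had 10.1, 5.54 and 9.12 CPM in d14 cells, 7.01, 2.44 and 4.01 CPM in 48 h cells, and 0.586, 0.632 and 0.939 CPM in uninjured cells. It rose by 3.51 ± 0.46 in d14 over uninjured cells (adjusted p = 8.33e-05) and by 2.66 ± 0.45 in 48 h over uninjured cells (adjusted p = 0.00134), while d14 and 48 h cells overlapped (0.85 ± 0.41, adjusted p = 0.138). *Hes6*, a Hes relative that counters HES1, fell by 0.98 in d14 over uninjured cells (SE 0.14, adjusted p = 0.000132). *Hes5* had no count in any library, and *Hey2* did not pass the filter.

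Among the genes of ligand endocytosis, 4 of 8 were higher and 1 lower in each comparison with uninjured cells, where 25.1% and 20.7% of all genes were called in d14 and 17.4% and 11.7% in 48 h cells. *Neurl3* rose by 2.22 ± 0.41 in d14 (adjusted p = 0.00112) and by 2.49 ± 0.42 in 48 h cells (adjusted p = 0.00131). *Neurl1b*, a gene of the Neuralized ligases that act on ligands, averaged 41.8 CPM in d14 cells, 23.7 CPM in 48 h cells and 9.57 CPM in uninjured cells, and rose by 2.13 ± 0.33 in d14 over uninjured cells (adjusted p = 0.000473). The 1 lower in d14 over uninjured cells was *Epn1*, which fell by 0.95 (SE 0.10, adjusted p = 2.15e-05). At 48 h *Epn1* was not called (-0.27, adjusted p = 0.0664). *Mib1*, the main ligand ubiquitin ligase gene, was the 1 lower in 48 h over uninjured cells (-0.36, adjusted p = 0.038). That call was lost in 11 of 18 alternatives. *Mib1* had 0.12 ± 0.11 in d14 over uninjured cells (adjusted p = 0.422) and was higher in d14 over 48 h cells by 0.48 (adjusted p = 0.0093).

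Of the 10 cleavage genes, 4 were higher and 3 lower in d14 over uninjured cells, not far from the 25.1% and 20.7% over all genes. *Adam17* rose by 1.23 ± 0.17 (adjusted p = 0.000124) and *Ncstn*, a gamma-secretase subunit gene, by 0.83 ± 0.11 (adjusted p = 0.000134). *Aph1c*, a subunit gene of the same protease, fell by 1.16 (SE 0.17, adjusted p = 0.000209). *Furin*, which encodes the protease of receptor maturation, had -0.74 ± 0.11 in d14 over uninjured cells (adjusted p = 0.000207), a call lost without TMM scaling. Of the 5 glycosylation genes 2 were higher and 2 lower: *Rfng*, a Fringe enzyme gene, fell to a mean of 20.4 CPM in d14 cells, against 46.9 CPM in uninjured cells (adjusted p = 8.21e-05), and *Pofut1*, the O-fucosyltransferase gene, rose by 0.52 (adjusted p = 0.00957).

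The 12 corepressor genes had 6 higher and 1 lower in d14 over uninjured cells. *Tle2*, a Groucho-type corepressor gene, averaged 37.6 CPM in d14 cells, 5.03 CPM in 48 h cells and 1.42 CPM in uninjured cells, a rise of 4.75 ± 0.37 on the log2 scale in d14 over uninjured cells (adjusted p = 2.64e-06). *Tle3* fell by 0.79 in 48 h over uninjured cells (SE 0.15, adjusted p = 0.00259) and was not called in d14 over uninjured cells (-0.10 ± 0.15, adjusted p = 0.614). Of the 11 receptor turnover genes 6 were higher and 3 lower in d14 over uninjured cells, with *Numbl* higher by 3.19 ± 0.46 (adjusted p = 0.000181).

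**Figure D4:**
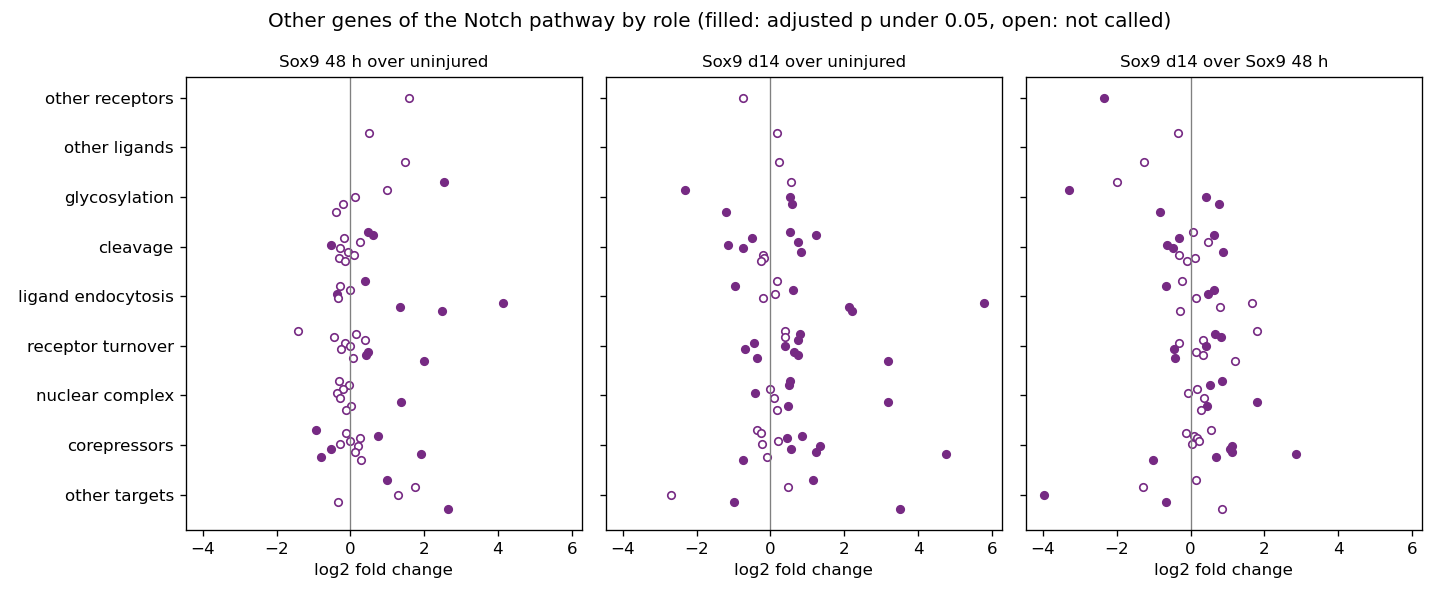
Log2 fold changes of the 62 tested other pathway genes by role in the 3 comparisons (filled points: adjusted p below 0.05). In d14 over uninjured cells 28 points are called higher and 12 lower, spread over most roles.

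Markers of the kidney's cell types were summed in every library, and several moved with the genes above. The 8 loop of Henle markers summed to 3110 to 5710 CPM in d14 cells, 855 to 1102 CPM in 48 h cells and 384 to 486 CPM in uninjured cells. The 6 distal convoluted and connecting tubule markers summed to 2211 to 3743 CPM in d14 cells, 245 to 411 CPM in 48 h cells and 80.2 to 126 CPM in uninjured cells. The 8 principal cell markers gave 487 to 706 CPM in d14 cells, 322 to 384 CPM in 48 h cells and 59.7 to 81.6 CPM in uninjured cells, and the 8 intercalated cell markers gave 239 to 262, 92.7 to 126 and 20.4 to 31.6 CPM in the same groups. In d14 over uninjured cells 6 of 8 loop of Henle, 6 of 6 distal convoluted and connecting tubule, 7 of 8 principal cell and 7 of 8 intercalated cell markers were higher, and 1 loop of Henle marker was lower. In 48 h over uninjured cells 5 of 8, 3 of 6, 7 of 8 and 6 of 8 of the same lists were higher. The 15 proximal tubule markers went the other way, with 4009 to 5374 CPM in d14 cells, 8537 to 15448 CPM in 48 h cells and 23434 to 25617 CPM in uninjured cells; 14 of 15 were lower in d14 and 10 of 15 in 48 h over uninjured cells.

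Among d14 replicates 1, 2 and 3 the loop of Henle sums were 3110, 5494 and 5710 CPM and the distal convoluted and connecting tubule sums 2211, 3743 and 3615 CPM. The principal cell sums were 706, 487 and 706 CPM and the intercalated cell sums 245, 239 and 262 CPM in the same replicates. *Jag1*, *Notch3*, *Hes1* and *Maml2* were highest in d14 replicate 1, *Notch1* in replicate 3, and *Notch2* and *Heyl* in replicate 2. The 15 endothelial markers summed to 43.2 to 84.2 CPM in d14 cells, 115 to 921 CPM in 48 h cells and 98.5 to 192 CPM in uninjured cells, and none was called against uninjured cells. *Pecam1*, *Cdh5* and *Kdr* were called lower in d14 than in 48 h cells (adjusted p = 0.0377, 0.0312 and 0.0449). The libraries of *Pecam1* (4.19 to 7.09 CPM in d14, 6.90 to 78.5 CPM in 48 h cells) and *Kdr* (5.67 to 10.3 and 9.77 to 111 CPM) overlapped. Those of *Cdh5* (2.07 to 6.69 and 7.19 to 57.8 CPM) did not. The 8 fibroblast markers gave 5.74 to 12.4, 1.57 to 5.55 and 1.45 to 3.05 CPM in d14, 48 h and uninjured cells. In the same order, 10 macrophage markers gave 46.8 to 125, 109 to 376 and 28.9 to 35.7 CPM, and 8 neutrophil markers gave 235 to 720, 185 to 614 and 3.00 to 8.11 CPM. The neutrophil sum at d14 was mostly *Lcn2*, which injured tubules also express, with a mean of 448 CPM in d14, 241 CPM in 48 h and 0.210 CPM in uninjured cells. Of the 6 tested neutrophil markers 5 were lower in d14 than in 48 h cells, and against uninjured cells 2 were higher in d14 and 6 in 48 h cells. The 6 podocyte markers gave 37.0 to 52.9, 45.6 to 153 and 38.5 to 59.6 CPM, and the 8 lymphocyte markers gave 1.96 to 3.29, 1.71 to 2.58 and 1.72 to 2.16 CPM. The part of these other cell types in the Notch values was not tested.

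**Figure D5:**
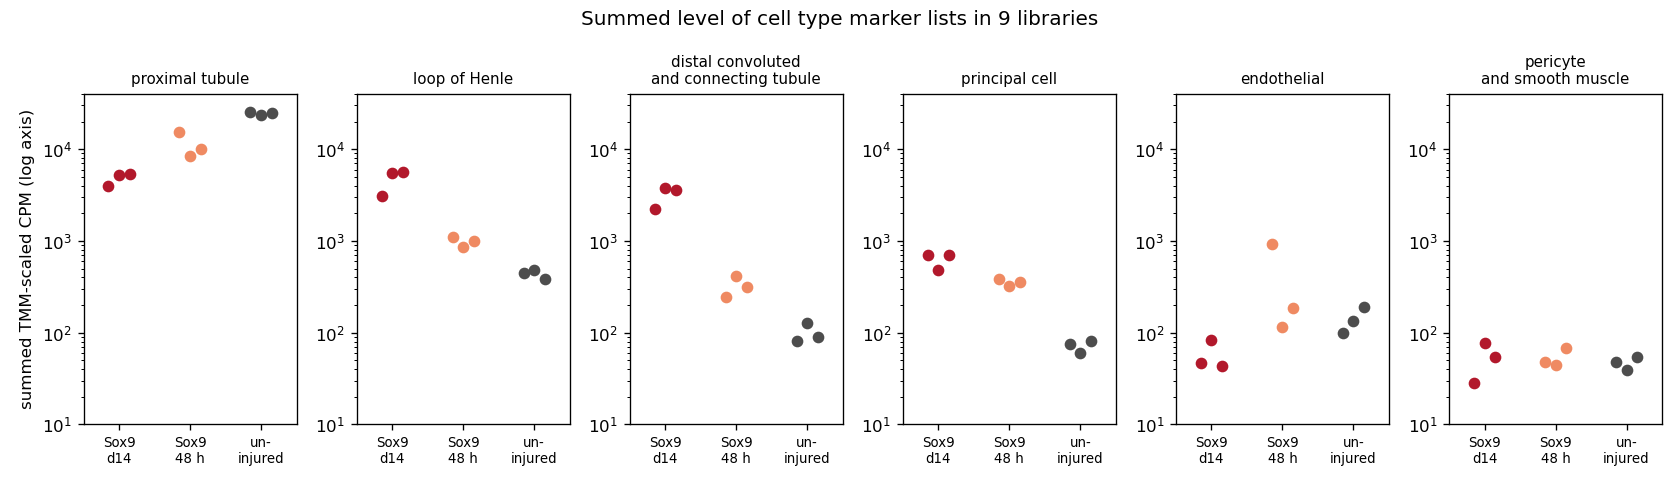
Summed TMM-scaled CPM of cell type marker lists on a log axis, per library of the d14, 48 h and uninjured groups. Loop of Henle sums were 3110 to 5710 CPM in d14 cells and 384 to 486 CPM in uninjured cells, and proximal tubule sums 4009 to 5374 and 23434 to 25617 CPM.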

How the data were processed

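The deposited table held expected counts per gene, all of them whole numbers as the authors deposited them, for 9 mouse libraries in 3 groups of 3. Per the submitters' processing notes, the tools listed, with no roles given, were RSEM 1.2.28, STAR 2.6.1, R 3.6.3, DESeq2 1.26.0 and bcl2fastq 2.20, and the builds were mm10 and GRCh38; all gene identifiers were mouse. Neither the annotation release nor a strand setting is stated. Counts were tested with edgeR 4.0.16 (limma 3.58.1, R 4.3.3): TMM factors, a minimum count of 10, a robust quasi-likelihood fit on all 9 libraries with group as the term, and Benjamini-Hochberg adjustment over 15519 genes. The tested genes held at least 99.89% of the counts of each library. TMM factors were 1.21 to 1.48 in d14, 0.848 to 0.912 in 48 h and 0.846 to 0.902 in uninjured libraries. CPM per kilobase used the exon length of GENCODE M21 genes (GRCm38). The procedure was tested on simulated data.

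The 10 genes and the gene lists were chosen with earlier results of these data known. Genes named beyond the 10 were Sox9 and Slc34a1, a few pathway genes and markers picked by name, up to 3 called genes of smallest p per role and comparison, and for each gene the 2 nearest profiles; some results are not reported here. Alternatives were DESeq2 1.42.0 size factors and its Wald test, no TMM, no filter, a minimum count of 30, limma-voom, a non-robust fit, only the 2 groups compared, a replicate block and leaving out each library. Replicates of a group differed beyond sampling noise. Correlations of deviations between libraries with the same number were -0.127 to 0.0190, so no pairing by number was seen. With 3 libraries per group these deviations are a weak check, and a shared batch was not tested. The labels call the libraries biological replicates without saying whether animals were pooled. Limits from counts cover counting error only.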

Additional observations from a re-analysis of the deposited data

How the results depend on the processing

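Over all alternatives, fold changes of the 10 genes kept their side of the threshold in 509 results, lost it in 19, gained it in 7 and were reversed in 0 among called values. Lost calls were in Hes1, Notch1 and Notch2. Jag2 was called in 48 h over uninjured cells by DESeq2 and without 48 h replicate 2, and in d14 over 48 h cells by DESeq2, without the filter and without 48 h replicate 2 or 3; Dll1 was called in d14 over 48 h cells without TMM (0.80, adjusted p = 0.0493; range over alternatives 0.0493 to 0.986). Without the filter, and by DESeq2, 1 of the 10 genes was lower in d14 than in 48 h cells. The number called higher there was 4 to 7 when a library was left out, 4 without d14 replicate 1, and the number lower 0 to 1. Genes called lower in 48 h over uninjured cells were 1147 to 1995 when a library was left out.

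Without TMM, 7315 genes were higher and 1417 lower in d14 over uninjured cells, and 6812 higher and 934 lower in d14 over 48 h cells. Of other pathway genes 4 were then lower in d14 over uninjured cells, and 41 higher and 3 lower in d14 over 48 h cells. Tle3 turned to 0.46 in d14 over uninjured cells, and Furin to 0.10 and Itch to 0.12 in d14 over 48 h cells. With a library left out, other pathway genes in 48 h over uninjured cells were 9 to 16 higher and 3 to 9 lower, those lower in d14 over uninjured cells 7 to 13, and those lower in d14 over 48 h cells 5 to 14. With only the groups compared, 3 were lower in 48 h over uninjured cells. The replicate block gave 3 lower there and 7 lower in d14 over 48 h cells, 6 of the 10 genes higher in d14 over 48 h cells, and no other count moved by over 1.5 times; 0 of 9 libraries correlated best with their own number. Not divided by length, the differences in share were 19.7 for Notch1 and 9.49 for Notch3 and -7.53 for Jag2 in d14 over uninjured cells and -13.3 for Dll1 in d14 over 48 h cells, and with the longest transcript 19.5 for Notch1. The causes were not tested. Hey1 could not be fitted in every alternative, since the filter on low counts drops it in some. Among those is the fit of only the groups compared, in both comparisons with uninjured cells. At 8036054 counts 48 h replicate 2 limits what can be seen of Hey1 and Jag2.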

Other observations

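Spen, a corepressor gene of RBPJ complexes, had mean levels of 99.2 CPM in d14 cells, 46.7 CPM in 48 h cells and 67.7 CPM in uninjured cells, higher in d14 over 48 h cells by log2 1.08 ± 0.16 (edgeR, adjusted p = 0.000632) and lower in 48 h over uninjured cells, at -0.53 ± 0.16 (adjusted p = 0.0289, 0.00826 to 0.118 over alternatives).

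Lfng, a Fringe enzyme gene that changes which ligands a receptor answers, had 1.03 to 1.30 CPM in d14 cells, 6.68, 0.431 and 6.64 CPM in 48 h cells, and 1.02, 0.702 and 0.660 CPM in uninjured cells. It was called in 48 h over uninjured cells (edgeR, log2 2.55 ± 0.75, adjusted p = 0.0256, 0.000479 to 0.0925 over alternatives), a call lost in 6 of 18 alternatives. The value of 0.431 CPM in 48 h replicate 2 rests on 3 counts in the library with the smallest total. It was below every uninjured library, but at that count the order is uncertain.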
